A study of Mus musculus with 12 samples.

Results

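The collagen chain genes are the genes that encode the polypeptide chains of collagens, and they were picked by symbol: Col, a number, the letter a and a number. Of 16239 named genes in the files, 41 symbols matched. Of these, 40 encode a collagen chain, namely 10 fibrillar chains, 6 basement membrane chains and 24 other chains. The remaining symbol, Col4a3bp, encodes a ceramide transfer protein and is given apart. After a filter on low counts, 24 of the 40 chains were tested for differences (7 fibrillar, 4 basement membrane and 13 other), beside 12587 genes in all. The other 16 chains were described by level only.

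RNA-seq was carried out on whole mouse liver (strain 129/B6, age 10 months) in 12 libraries. The mice either had the floxed allele of the thrombospondin 1 gene (TSP1, gene symbol Thbs1) or were labelled as a knockout of TSP1 in macrophages. The diet, LF or HF, was given for 8 months. The libraries form 4 groups of 3: LF floxed (labelled WT), LF knockout, HF floxed (labelled WT) and HF knockout, and the study concerned TSP1 from macrophages in obesity-associated fatty liver disease. The Cre line that removes the gene is not given in the sources used here, and nothing in the labels says whether the 3 replicates of a group are separate animals, so the p-values rest on a spread between libraries that may be technical.

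Collagens are triple helices of chains that are modified and folded in the endoplasmic reticulum, secreted, trimmed and cross-linked. Types I, III and V form the banded fibrils of scar tissue and of the portal tracts, and in fibrotic liver they come mainly from activated hepatic stellate cells and portal fibroblasts. Type IV forms the sheet-like network of basement membranes, and further families decorate fibrils, form microfibrils or span the plasma membrane.

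Promoter sequences of 32 of the 40 chain genes were found in RefSeq (build GRCm38.p6, 300 bases per window, from 250 before to 50 after the start of transcription). Col4a1 and Col4a2, which encode the 2 chains of the common type IV network, face away from each other on chromosome 8, and their windows share 78 bases. They are shown for this overlap, with the shared bases in capitals. The Col4a1 window lies at chr8:11312777-11313076 on the minus strand and the Col4a2 window at chr8:11312555-11312854 on the plus strand.
Col4a1: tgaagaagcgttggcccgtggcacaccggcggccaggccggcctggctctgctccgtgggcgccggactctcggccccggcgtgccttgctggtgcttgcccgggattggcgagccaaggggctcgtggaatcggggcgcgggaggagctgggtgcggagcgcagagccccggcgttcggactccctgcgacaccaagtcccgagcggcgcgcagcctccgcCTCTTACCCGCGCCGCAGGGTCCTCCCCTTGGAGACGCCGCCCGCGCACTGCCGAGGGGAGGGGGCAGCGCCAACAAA
Col4a2: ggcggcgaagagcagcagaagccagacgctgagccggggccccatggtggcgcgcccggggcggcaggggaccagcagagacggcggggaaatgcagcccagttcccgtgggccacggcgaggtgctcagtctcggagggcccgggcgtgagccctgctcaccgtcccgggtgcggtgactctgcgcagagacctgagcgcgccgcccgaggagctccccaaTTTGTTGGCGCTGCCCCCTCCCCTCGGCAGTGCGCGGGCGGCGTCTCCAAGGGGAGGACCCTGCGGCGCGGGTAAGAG
The shared stretch runs from 11312777 to 11312854 and appears in each line as the reverse complement of the other. The windows reach 250 bases before each start, so the shared bases are not all transcribed. How the counting treated strand is not given in the sources used here. Any effect of the overlap on the counts of these genes was not tested.

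Windows of the fibril genes Col1a2 and Col3a1 are shown as an example of start regions that differ in letters. In Col1a2 (chr6:4505368-4505667, plus strand) the capitals mark 2 matches to CCAAT, the second of them on the opposite strand. In Col3a1 (chr1:45311288-45311587, plus strand) they mark 1 match to TATAAA.
Col1a2: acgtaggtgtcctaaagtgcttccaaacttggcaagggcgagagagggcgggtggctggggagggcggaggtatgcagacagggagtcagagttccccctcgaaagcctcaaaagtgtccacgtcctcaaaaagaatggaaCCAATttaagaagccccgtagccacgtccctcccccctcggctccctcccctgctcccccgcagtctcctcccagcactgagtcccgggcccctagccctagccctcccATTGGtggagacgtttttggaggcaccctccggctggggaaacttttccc
Col3a1: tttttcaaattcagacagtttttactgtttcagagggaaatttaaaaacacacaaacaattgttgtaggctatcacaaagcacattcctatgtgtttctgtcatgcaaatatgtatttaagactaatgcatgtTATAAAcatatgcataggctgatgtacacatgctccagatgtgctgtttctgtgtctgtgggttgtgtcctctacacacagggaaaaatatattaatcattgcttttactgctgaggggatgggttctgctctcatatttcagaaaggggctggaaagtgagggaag
Over the 34 windows of chain genes, searched on both strands, 32.4% held CCAAT against 37.4% of 32851 windows of all genes. The GC box GGGCGG was in 64.7% of chain windows and in 35.7% of all windows. TATAAA was in 14.7% against 13.6%, and the AP-1 letters TGANTCA were in 2.9%, a single window of Col6a1, against 7.8%. These matches describe letters and not bound sites.

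The libraries held 16131506 to 16536016 estimated counts each, and values of a group are listed from replicate 1 to 3. Hepatocyte transcripts dominated, as the 7 hepatocyte markers examined summed to 40450 to 103900 FPKM (fragments per kilobase of transcript, scaled to sequencing depth). The most alike libraries within a group were LF knockout replicates 2 and 3 (chi-square per degree of freedom 2.85), followed by replicates 1 and 2 of HF floxed (8.87), against 50.7 or more in the other pairs. Both pairs differed by more than sampling noise and were kept as separate libraries. HF knockout replicate 2 stood apart, with Gpc3 at 101.49 FPKM and Afp at 29.98 FPKM, both transcripts of fetal liver, against at most 0.89 and 0.61 FPKM elsewhere. Cidea, a lipid droplet gene, was at 47.22 and 52.43 FPKM in LF knockout replicates 2 and 3, as in HF floxed (27.37 to 68.17 FPKM), against 0.61 FPKM in LF knockout replicate 1, at most 0.11 FPKM in LF floxed, and 0, 7.89 and 2.32 FPKM in HF knockout. Thbs1, the targeted gene, measured 0.08 ± 0.03 FPKM (SD, n = 3) in LF floxed, 0.60 ± 0.25 in HF floxed, 0.39 ± 0.27 in LF knockout and 1.07 ± 0.80 in HF knockout. Thbs1 was thus no lower in the knockout groups, but whole-liver RNA holds Thbs1 of all cell types, so these values do not check a deletion in macrophages. Gpc3, Afp and Cidea were chosen after their values were seen.

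Per length, 1 chain made up most of the collagen transcripts. Col18a1, the chain of the multiplexin collagen XVIII that carries endostatin and is made by hepatocytes, had a mean of 146.1 FPKM over the 12 libraries and took 57.7 to 90.1% of the summed collagen FPKM of a library. It measured 129.26, 165.54 and 128.60 FPKM in LF floxed, 147.19, 140.40 and 133.39 in HF floxed, 146.10, 134.86 and 142.68 in LF knockout and 164.75, 152.64 and 167.32 in HF knockout. All 12 values lay within a narrow band, and only HF knockout lay wholly above the LF knockout and HF floxed groups. With Col18a1 set aside, the summed FPKM of the other 39 chains ranged from 18.1 in HF knockout replicate 1 to 103.0 in HF floxed replicate 2.

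After Col18a1, the next chains by mean FPKM were Col3a1 (8.07), Col14a1 (7.69), Col4a1 (6.51), Col5a3 (5.12), Col1a1 (4.47), Col1a2 (4.28), Col4a2 (3.91), Col6a1 (2.30), Col6a2 (1.96), Col15a1 (1.89), Col27a1 (1.86), Col5a1 (1.12) and Col6a3 (1.07). Neighbours in that order differed by less than the spread between libraries. Below 1 FPKM on average were 26 chains, and none of the 16 untested ones passed 0.62 FPKM in any library. The untested chains include those of cartilage (Col2a1, Col9a2, Col9a3, Col10a1, Col11a2), of the skin's anchoring fibrils (Col7a1) and of epithelial hemidesmosomes (Col17a1).

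**Figure D1:**
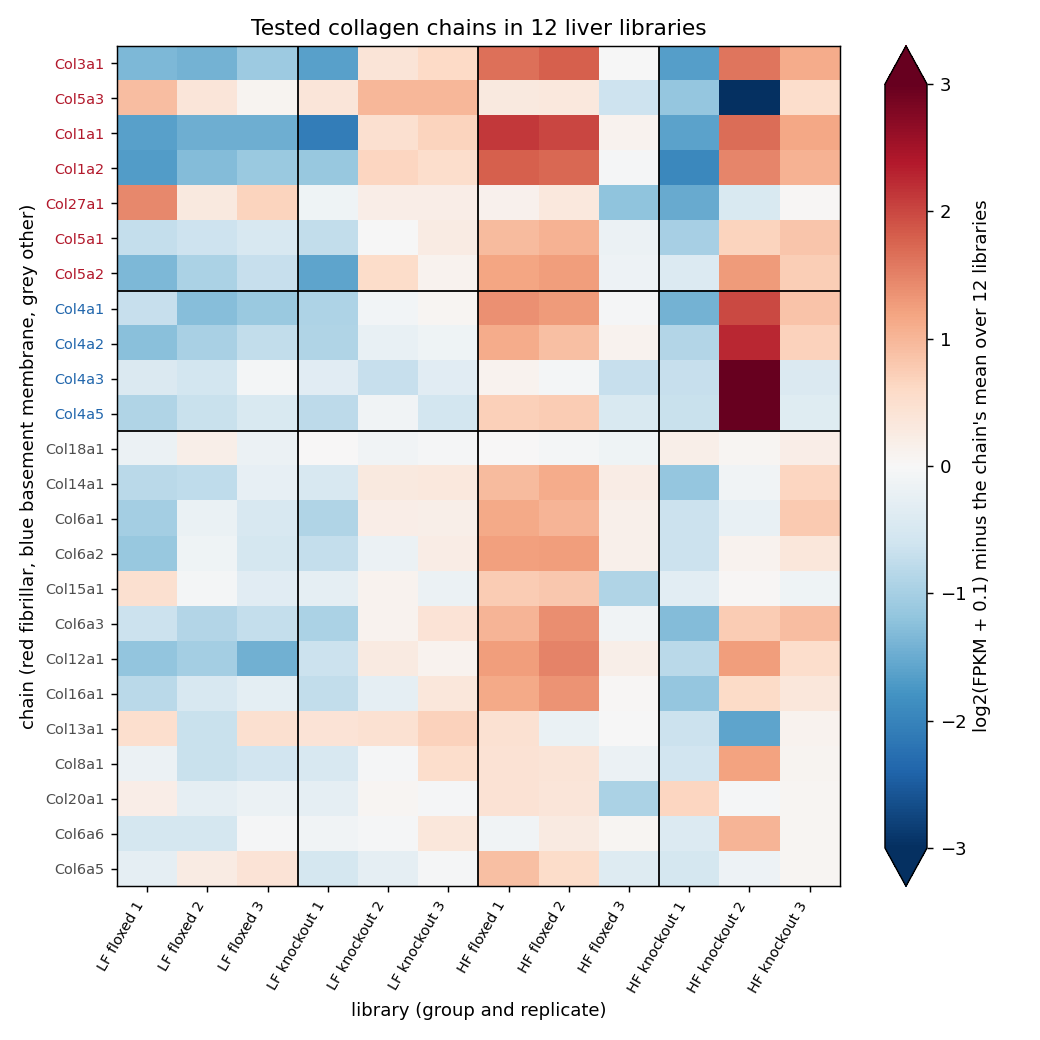
Levels of the 24 tested collagen chains (rows, grouped by class) in the 12 libraries (columns), as log2(FPKM + 0.1) minus the mean of the chain over all libraries. Colours saturate at 3 units in either direction. HF floxed replicates 1 and 2 and HF knockout replicate 2 are red in most fibrillar and type IV rows, while LF floxed and the first replicate of each knockout group are blue, and the Col18a1 row is nearly blank.

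The first comparison asked how collagen transcripts differed between the HF and the LF diet in livers without the knockout (HF floxed against LF floxed). Fibrillar chains of types I and III were higher in all 3 HF libraries than in any LF library, several times so in HF floxed replicates 1 and 2. The type V chains Col5a1 and Col5a2 were also higher in all 3, as were Col4a1, Col4a2, Col6a1 to Col6a3, Col12a1, Col14a1 and Col16a1. Col5a3 and Col27a1 had lower means on HF, and the means of Col18a1 were 140.3 and 141.1 FPKM. None of these differences passed the test across all genes. With edgeR's quasi-likelihood test, 0 of 24 chains were called at a false discovery rate of 5%, where 0.0% of all 12587 genes were called. DESeq2 called 5 chains (Col1a1, Col1a2, Col3a1, Col6a2 and Col12a1), against 2.02% of all genes. An edgeR fit of the 6 compared libraries alone tested 19 chains and called 4 of them (Col1a1, Col1a2, Col3a1 and Col4a2), against 0.679% of the 12077 genes in that fit, so whether type I and III chains rose depends on the tool and on which libraries set the spread.

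By group ranges, 13 of 24 chains were higher in every HF floxed library than in every LF floxed one, against 23.6% of all genes, and 0 were lower in every one, against 3.3%. FPKM sets no common level between libraries: on log2(FPKM + 1) the median gene was itself 0.20 higher in HF floxed, whereas the median of the edgeR fold changes, which use TMM scaling, was 0.00 in this comparison. In edgeR the same 13 chains were higher at an unadjusted p under 0.05, against 6.85% of all genes, and 1 chain, Col27a1, was lower, against 5.32%. The median log2 fold change was 2.10 over the 7 fibrillar chains, 1.63 over the 4 basement membrane chains and 0.97 over the 13 other chains, beside 0.00 over all genes. Col4a5, in the basement membrane class, had at most 9 counts in any LF library. It passed the filter only through HF libraries (26 counts in HF floxed replicates 1 and 2, 221 in HF knockout replicate 2). Its difference by diet is therefore not independent of the filter. Col20a1, with at most 8 counts on LF, also passed only through HF libraries. The fibrillar median was 0.57 over 10 chains without the filter and 0.69 on log2(FPKM + 1).

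Among the fibrillar chains, Col1a1 encodes the α1 chain of type I collagen, the main fibril former of scar. It measured 0.81, 0.93 and 0.92 FPKM in LF floxed (77, 91 and 89 counts) and 12.11, 11.17 and 2.95 FPKM in HF floxed (1174, 1073 and 287 counts). It was at 0.57, 3.83 and 4.40 FPKM in LF knockout and at 0.83, 8.93 and 6.24 FPKM in HF knockout. Every HF floxed library lay above every LF floxed one, and the first library of each knockout group lay within or near the LF floxed range. The log2 fold change of HF over LF in floxed libraries was 2.98 ± 0.81 (SE; edgeR adjusted p = 0.242, DESeq2 adjusted p = 0.00558).

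Col1a2 encodes the α2 chain of type I collagen. It measured 0.84, 1.12 and 1.28 FPKM in LF floxed, 10.32, 9.88 and 2.83 in HF floxed, 1.27, 4.59 and 4.22 in LF knockout and 0.69, 8.26 and 6.06 in HF knockout. The order of the libraries was nearly that of Col1a1. Its log2 fold change on HF in floxed libraries was 2.51 ± 0.71 (edgeR adjusted p = 0.263).

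Col3a1, the chain of type III collagen that co-assembles with type I in reticular fibres, was at 2.09, 2.00 and 2.53 FPKM in LF floxed, at 17.58, 19.33 and 5.43 in HF floxed, at 1.70, 7.25 and 8.35 in LF knockout and at 1.68, 16.84 and 12.07 in HF knockout. It too separated the floxed groups by diet and spanned both of them within each knockout group. Its log2 fold change on HF in floxed libraries was 2.36 ± 0.70 (edgeR adjusted p = 0.277). Over the 12 libraries, log2 levels of Col1a1 correlated with those of Col3a1 at r = 0.99 and with those of Col1a2 at r = 0.98, a description over points that share group and library.

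The type V chains, which set fibril width within type I fibres, divided. Col5a1 measured 0.56, 0.60 and 0.67 FPKM in LF floxed, 2.00, 2.12 and 0.86 in HF floxed, 0.55, 0.97 and 1.18 in LF knockout and 0.44, 1.62 and 1.82 in HF knockout. Col5a2, at 0.06 to 1.07 FPKM, had a log2 fold change on HF in floxed libraries of 2.10 ± 0.71, and Col5a1 one of 1.14 ± 0.41. The edgeR adjusted p was 0.311 for Col5a2 and 0.327 for Col5a1.

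Col5a3, the remaining type V chain, was the most abundant fibrillar chain in every LF floxed library. It measured 8.05, 5.40 and 4.40 FPKM in LF floxed, 5.14, 5.22 and 2.68 in HF floxed, 5.43, 8.41 and 8.38 in LF knockout and 1.81, 0.42 and 6.10 in HF knockout. These ranges overlapped between the floxed groups, with a log2 fold change of −0.76 ± 0.61 (edgeR adjusted p = 0.627). The FPKM ratio of Col5a3 to Col5a1 was 6.57 to 14.4 in LF floxed, 2.46 to 3.12 in HF floxed, 7.10 to 9.87 in LF knockout and 0.259 to 4.11 in HF knockout, so the chains of 1 collagen type were not in a fixed proportion.

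Col27a1, a fibrillar chain known from cartilage, measured 4.62, 2.01 and 2.66 FPKM in LF floxed, 1.79, 2.04 and 0.65 in HF floxed, 1.49, 1.88 and 1.87 in LF knockout and 0.51, 1.15 and 1.68 in HF knockout. Only the first LF floxed library exceeded 3 FPKM, and HF floxed replicate 2 lay just above the lowest LF floxed value. The log2 fold change on HF in floxed libraries was −1.39 ± 0.41 (edgeR adjusted p = 0.277). Over all libraries its log2 level had no linear relation to Col1a1 (r = −0.07), and that of Col5a3 had r = −0.16.

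The make-up of the fibrillar transcripts therefore differed between floxed groups. Col1a1, Col1a2 and Col3a1 together took 21.8 to 37.1% of the fibrillar FPKM in LF floxed, 71.1 to 79.9% in HF floxed, 31.8 to 58.7% in LF knockout and 51.3 to 88.7% in HF knockout. Col5a3 and Col27a1 together took 55.3 to 74.0% in LF floxed and 13.9 to 21.1% in HF floxed. These shares are free of the scaling between libraries and did not overlap between the floxed groups, but no test was run on them.

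**Figure D2:**
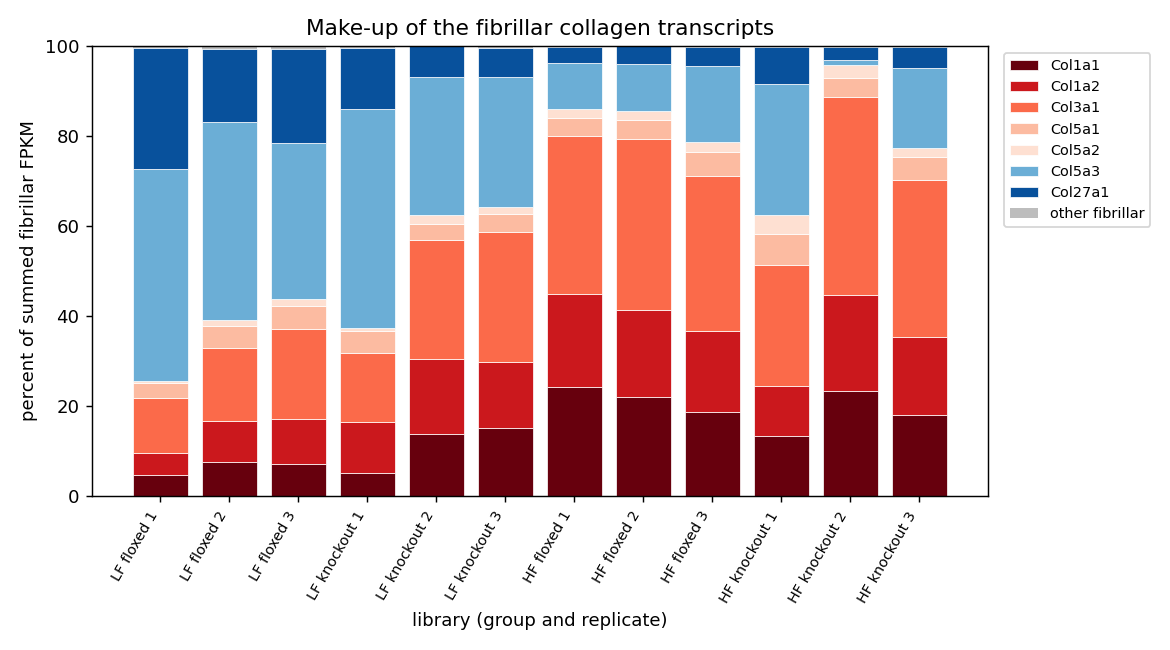
Share of each fibrillar chain in the summed fibrillar FPKM of each library (stacked bars, percent). The red part at the base (Col1a1, Col1a2 and Col3a1) takes 21.8 to 37.1% in LF floxed and 71.1 to 79.9% in HF floxed, and the blue part (Col5a3 and Col27a1) takes most of the LF floxed bars.

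Among the basement membrane chains, Col4a1 and Col4a2 build the type IV network found in all basement membranes, including the vessel and duct walls of the liver. Col4a1 measured 2.93, 1.92 and 2.16 FPKM in LF floxed, 12.63, 11.83 and 4.66 in HF floxed, 2.50, 4.57 and 5.0 in LF knockout and 1.73, 19.42 and 8.81 in HF knockout. Col4a2 measured 1.17, 1.43 and 1.70 FPKM in LF floxed, 6.45, 5.51 and 3.15 in HF floxed, 1.52, 2.50 and 2.66 in LF knockout and 1.55, 14.48 and 4.80 in HF knockout. Both were highest in HF knockout replicate 2, and in both the HF floxed libraries lay wholly above the LF floxed ones. Their log2 fold changes on HF in floxed libraries were 1.74 ± 0.61 for Col4a1 and 1.52 ± 0.56 for Col4a2 (edgeR adjusted p = 0.316 and 0.331). With HF knockout replicates 1 and 2 left out of the fit, a setting chosen after seeing the data, these 2 of 28 tested chains passed the test (edgeR adjusted p = 0.0472 and 0.0342), against 0.685% of all genes in that fit. Their FPKM ratio was 1.12 to 2.50 over the 12 libraries, with r = 0.96 between their log2 levels. This was not particular to the pair: Col3a1 and Col4a1, on different chromosomes, also had r = 0.96, and Col6a1 and Col6a2 had r = 0.95 with a ratio of 0.93 to 1.62.

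The remaining type IV chains form the networks of specialised membranes such as that of the kidney glomerulus. Col4a3 was listed at 0.01 to 0.09 FPKM in 11 libraries (2 to 12 counts) and at 3.04 FPKM (421 counts) in HF knockout replicate 2. Col4a5 was at 0.01 to 0.25 FPKM in 11 libraries and at 2.14 FPKM (221 counts) in that library, and Col4a4 exceeded 0.11 FPKM in it alone, with 0.62 FPKM (78 counts). Col4a6 was no higher there than elsewhere (0.05 FPKM, against at most 0.14). In the floxed libraries, Col4a3 and Col4a5 had log2 fold changes on HF of 0.19 ± 1.59 and 2.31 ± 1.42 (edgeR adjusted p = 0.973 and 0.524).

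Among the other chains, Col6a1, Col6a2 and Col6a3 form the beaded microfibrils of type VI collagen around cells. Col6a1 measured 0.96, 1.78 and 1.44 FPKM in LF floxed, 4.62, 4.21 and 2.28 in HF floxed, 1.05, 2.34 and 2.32 in LF knockout and 1.26, 1.74 and 3.59 in HF knockout. Col6a2 measured 0.73, 1.56 and 1.17 FPKM in LF floxed, 4.20, 4.23 and 1.92 in HF floxed, 1.00, 1.50 and 2.02 in LF knockout and 1.07, 1.87 and 2.21 in HF knockout. Col6a3 measured 0.53, 0.44 and 0.50 FPKM in LF floxed, 1.91, 2.48 and 0.81 in HF floxed, 0.41, 0.96 and 1.20 in LF knockout and 0.30, 1.56 and 1.78 in HF knockout. In each of these genes all HF floxed libraries lay above all LF floxed ones. The log2 fold changes on HF in floxed libraries were 1.12 ± 0.37 for Col6a1, 1.28 ± 0.33 for Col6a2 and 1.52 ± 0.52 for Col6a3 (edgeR adjusted p = 0.307, 0.237 and 0.314). Col6a5 and Col6a6, further type VI genes, were tested at far lower levels, Col6a5 at no more than 0.17 FPKM and Col6a6 at no more than 0.25 FPKM.

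Chains that attach to the surface of fibrils (FACIT collagens) were led by Col14a1, which was at 3.88, 4.02 and 5.77 FPKM in LF floxed, at 13.29, 15.07 and 8.00 in HF floxed, at 4.93, 8.50 and 8.53 in LF knockout and at 3.04, 6.42 and 10.88 in HF knockout. Its log2 fold change on HF in floxed libraries was 1.12 ± 0.33 (edgeR adjusted p = 0.277). Col12a1, another chain of this family, measured 0.22, 0.26 and 0.17 FPKM in LF floxed (12 to 19 counts), 1.64, 1.95 and 0.72 in HF floxed, 0.37, 0.78 and 0.69 in LF knockout and 0.32, 1.64 and 0.96 in HF knockout. It had the smallest p of all chains in this comparison, with a log2 fold change of 2.30 ± 0.59 (edgeR adjusted p = 0.235, DESeq2 adjusted p = 0.0160). Col16a1, at 0.22 to 1.71 FPKM, had one of 1.36 ± 0.48 (edgeR adjusted p = 0.316), and Col20a1, at 0 to 0.20 FPKM, one of −0.03 ± 0.88.

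The multiplexins, both basement membrane zone collagens that release inhibitors of vessel growth, had overlapping floxed groups. Col18a1 had a log2 fold change on HF in floxed libraries of −0.24 ± 0.22 (edgeR adjusted p = 0.675). Col15a1 measured 2.54, 1.70 and 1.40 FPKM in LF floxed, 3.07, 3.21 and 0.90 in HF floxed, 1.46, 1.94 and 1.57 in LF knockout and 1.41, 1.82 and 1.63 in HF knockout. HF floxed held both the highest and the lowest Col15a1 values of the series, and the log2 fold change was 0.02 ± 0.35 (edgeR adjusted p = 0.990). Col13a1, a transmembrane collagen at 0.15 to 1.10 FPKM, had one of −0.38 ± 0.52, and Col8a1, a network-forming chain at 0.05 to 0.45 FPKM, one of 0.97 ± 0.71.

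**Figure D3:**
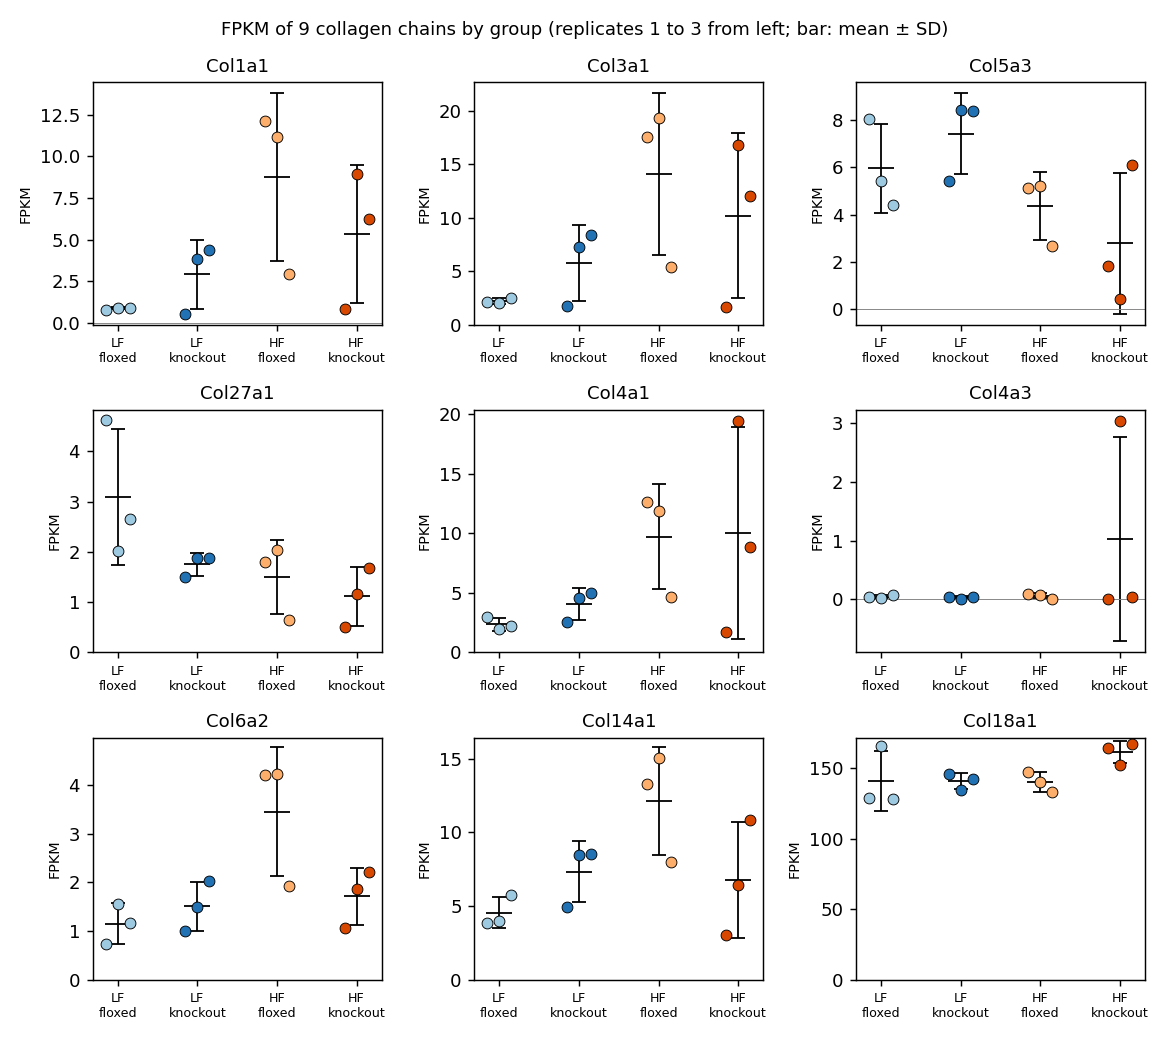
FPKM of 9 collagen chains in the 4 groups. Points are replicates 1 to 3 from left to right, and bars give the mean ± SD of 3 libraries. Points of Col1a1, Col3a1, Col4a1, Col6a2 and Col14a1 in HF floxed lie above all LF floxed points, the first knockout library of each diet lies low, and Col4a3 stands off 0 only in HF knockout replicate 2.

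Marker genes of several cell types also had higher values in HF floxed. All 14 tested markers of hepatic stellate cells and fibroblasts had higher fitted values in HF floxed than in LF floxed, with a median log2 fold change of 0.88 and 0 called by edgeR, and 5 reached an unadjusted p under 0.05. Of all genes, 49.9% had higher fitted values and 6.85% were higher at that level. Their summed FPKM was 74.4 to 116.4 in LF floxed, 120.2 to 201.8 in HF floxed, 81.8 to 114.3 in LF knockout and 47.3 to 147.3 in HF knockout. Dcn alone had means of 64.3 FPKM in LF floxed and 118.3 FPKM in HF floxed. Its fitted log2 fold change was 0.60 ± 0.36 (SE; edgeR adjusted p = 0.517). Of 8 endothelial markers 7 had higher fitted values (median 0.42) and of 5 tested cholangiocyte markers 4 had (median 0.58). The cholangiocyte markers summed to 35.4 to 108.8 FPKM in HF floxed against 21.8 to 37.4 FPKM in LF floxed. Spp1 alone had means of 76.3 and 24.5 FPKM in these groups, with a fitted log2 fold change of 1.33 ± 0.94 (edgeR adjusted p = 0.582). Of 7 macrophage markers 3 were higher (median −0.15). All 7 hepatocyte markers had lower fitted values in HF floxed, with a median of −0.80. Of these, 0 were lower at an unadjusted p under 0.05 in edgeR, against 5.32% of all genes, and 0 were called. None of the markers on the stellate cell list was at 0 in all libraries. In whole liver, more collagen-producing cells and more transcript per cell cannot be told apart, and the part of these cells in the collagen differences was not tested.

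Genes that act on collagen were examined beside the chains, to be read against the 49.9% of all genes with higher fitted values and the 6.85% higher at an unadjusted p under 0.05. Of 19 tested biosynthesis genes 14 had higher fitted values in HF floxed, 4 of them at an unadjusted p under 0.05 and 0 lower at that level, with a median log2 fold change of 0.35. Serpinh1, the collagen chaperone HSP47, was at 3.57 ± 0.70 FPKM (SD, n = 3) in LF floxed and 12.8 ± 2.6 in HF floxed, a log2 fold change of 1.57 ± 0.24 (SE; edgeR adjusted p = 0.122). P4ha1, a prolyl 4-hydroxylase subunit, had one of 1.12 ± 0.37 (edgeR adjusted p = 0.303).

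Of 11 tested genes for trimming and cross-linking 9 had higher values, 6 of them at an unadjusted p under 0.05, with a median of 1.09. The cross-linking enzymes Tgm2 (28.4 ± 1.0 FPKM in LF floxed, 74.9 ± 28.8 in HF floxed) and Lox (0.02 ± 0.03 and 0.29 ± 0.12) had log2 fold changes of 1.09 ± 0.23 and 3.32 ± 0.82 (edgeR adjusted p = 0.179 and 0.215). All 7 tested receptors were higher (median 0.63), among them the collagen uptake receptor Mrc2 with 1.57 ± 0.43 and Cd44 with 0.89 ± 0.52 (edgeR adjusted p = 0.253 and 0.505).

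All 7 tested genes of collagen degradation and its inhibition were higher too, 5 at an unadjusted p under 0.05, with a median of 1.65. Mmp2, a gelatinase, was at 0.65 ± 0.08 FPKM in LF floxed and 2.53 ± 1.08 in HF floxed, with a log2 fold change of 1.65 ± 0.40 (edgeR adjusted p = 0.215). Mmp13, a collagenase, had no entry in the LF floxed libraries (taken as 0) and was at 0.75 ± 0.66 FPKM in HF floxed. Of these 4 lists 0 members were called by edgeR, and 5 biosynthesis and 2 cross-linking genes had lower fitted values.

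The same diet comparison was then made in livers labelled as macrophage TSP1 knockout (HF knockout against LF knockout). Type I and III chains and Col6a1 to Col6a3 overlapped between the diets, with fitted differences near or below their standard errors, and Col5a3 and Col13a1 had lower means on HF. The largest fitted differences were in type IV chains. Those of Col4a3 and Col4a5 rested on 1 library, HF knockout replicate 2. The log2 fold change of Col4a2 was 0.50 without that library, against 1.61 with it. No chain of 24 was called by edgeR (0.0% of all genes) or by DESeq2 (1.0% of all genes). At an unadjusted p under 0.05 edgeR had 3 chains higher (Col4a2, Col4a3 and Col4a5, against 8.81% of all genes) and 2 lower (Col5a3 and Col13a1, against 3.38%). The 2 lower chains had their lowest values of the series in HF knockout replicate 2 (0.42 and 0.15 FPKM). Col5a3 in HF knockout replicate 3 (6.10 FPKM) lay within the LF knockout range. Only Col18a1 was higher in every HF knockout library than in every LF knockout one (5.59% of all genes), and only Col13a1 was lower in every one (5.98% of all genes).

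Over the fibrillar chains the median log2 fold change in knockout libraries was 0.53, over basement membrane chains 2.75 and over other chains 0.27, beside 0.03 over all genes. The basement membrane median includes Col4a5, which passed the filter only through HF libraries. Col1a1 had 0.83 ± 0.75, Col3a1 0.79 ± 0.67 and Col6a2 0.17 ± 0.33 (SE; edgeR adjusted p = 0.682, 0.664 and 0.873). The fitted log2 fold change of Col4a3 was 5.07 ± 1.61 and that of Col4a5 3.89 ± 1.36 (edgeR adjusted p = 0.344 and 0.346). Without HF knockout replicate 2 these turned to −0.37 and −0.11. Col4a2 had 1.61 ± 0.55 and Col4a1 1.27 ± 0.60 (edgeR adjusted p = 0.344 and 0.420).

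Both knockout groups were uneven inside. In LF knockout, replicates 2 and 3 exceeded replicate 1 in Col1a1 (3.83 and 4.40 against 0.57 FPKM), and in HF knockout, replicates 2 and 3 exceeded replicate 1 (8.93 and 6.24 against 0.83 FPKM). With LF knockout replicates 2 and 3 left out, the libraries high in Cidea, the median over fibrillar chains was 1.81 and that over other chains 0.92, with 1 library left in that group, whose spread is assumed to be that of the other groups. With HF knockout replicates 1 and 2 left out, the basement membrane median was −0.01, and it was 0.12 without replicate 2 alone. The stellate cell and fibroblast markers were not higher on HF in knockout libraries: 4 of 14 had higher and 10 lower fitted values, with a median of −0.21. Of all genes, 52.9% had higher fitted values. All 7 macrophage markers had higher ones (median 1.31), 3 of them at an unadjusted p under 0.05, against 8.81% of all genes. The macrophage markers summed to 39.6, 64.3 and 59.5 FPKM in LF knockout and to 115.5, 37.6 and 225.3 FPKM in HF knockout. By this sum HF knockout replicate 2 lay below every LF knockout library. The part of these macrophage markers in the collagen values was not tested.

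**Figure D4:**
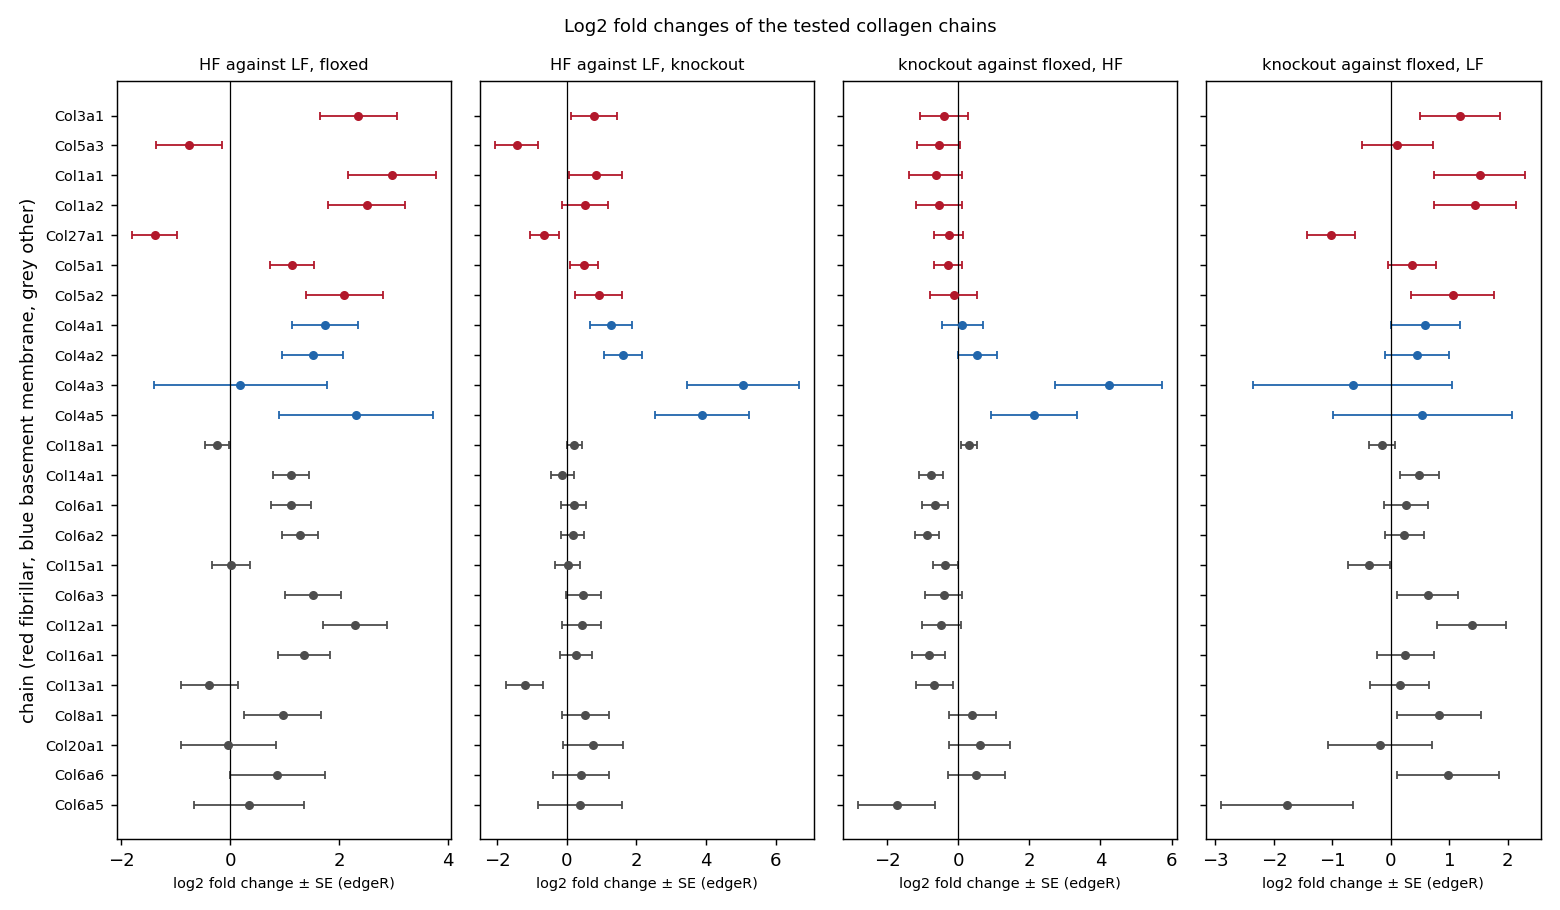
Log2 fold changes ± SE from edgeR of the 24 tested chains in 4 comparisons (red fibrillar, blue basement membrane and grey other chains). The horizontal scale differs between panels. In the first panel most chains lie right of 0 except Col5a3, Col27a1, Col13a1 and Col18a1 and those near 0, in the one for knockout against floxed on HF all 7 fibrillar chains lie left of 0 with intervals that reach it, and Col4a3 and Col4a5 lie far right in both panels with HF knockout.

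The genotypes were compared within the HF diet (HF knockout against HF floxed). Fibrillar chains and Col6a1 to Col6a3 were at lower means in the knockout and the 4 tested type IV chains at higher ones, and no difference passed the test. Of 24 chains 0 were called by edgeR (0.0% of all genes) and 0 by DESeq2 (0.548% of all genes). At an unadjusted p under 0.05 edgeR had Col4a3 higher (4.59% of all genes) and Col6a2 and Col14a1 lower (3.06%). By group ranges only Col18a1 was higher throughout, against 2.25% of all genes, and no chain was lower throughout, against 7.08%.

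All 7 fibrillar chains had lower fitted values in HF knockout, with a median log2 fold change of −0.39 (0.03 over all genes). Of all genes, 53.4% had higher fitted values there. Col1a1 had −0.63 ± 0.74, Col1a2 −0.54 ± 0.66 and Col3a1 −0.39 ± 0.67 (SE; edgeR adjusted p = 0.869, 0.878 and 0.921). HF knockout replicates 2 and 3 lay between HF floxed replicate 3 and the other HF floxed libraries for all of these, and replicate 1 lay below all of them. Without that replicate the fibrillar median was 0.01. Of the 14 stellate cell and fibroblast markers 12 had lower fitted values in HF knockout, with a median of −0.74. At an unadjusted p under 0.05 in edgeR 4 of them were lower, against 3.06% of all genes, and 0 were called. The part of these markers in the collagen values was not tested.

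Among other chains, whose median was −0.48, Col6a2 had −0.88 ± 0.33 and Col14a1 −0.76 ± 0.33 (edgeR adjusted p = 0.607 and 0.632). For Col6a2 HF knockout replicates 2 and 3 (1.87 and 2.21 FPKM) lay near the lowest HF floxed library (1.92 FPKM). Of the genes that act on collagen, 9 of 19 for biosynthesis, 5 of 11 for trimming and cross-linking, 5 of 7 receptors and 1 of 7 for degradation had higher fitted values in HF knockout, with medians of −0.03, −0.04, 0.42 and −0.87 and 0 called by edgeR. The share over all genes was 53.4%. Col18a1, wholly higher in HF knockout, had 0.31 ± 0.22 (edgeR adjusted p = 0.760). The 4 basement membrane chains had a median of 1.33, with Col4a3 at 4.23 ± 1.51 and Col4a5 at 2.12 ± 1.21 (edgeR adjusted p = 0.600 and 0.713). This median was −1.01 without HF knockout replicate 2, and Col4a3 was then at −1.21.

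HF knockout replicate 2 also differed in its cell type markers. Its 6 cholangiocyte markers summed to 755.1 FPKM, against 21.8 to 108.8 FPKM in the 11 other libraries, of which Spp1 alone was 743.15 FPKM. Epcam, Sox9 and Cftr were also at their highest there (2.25, 7.63 and 0.22 FPKM), whereas Krt19 and Krt7 lay within the range of the other libraries. Its stellate cell and fibroblast markers summed to 74.8 FPKM, of which Dcn was 34.72 FPKM, against 47.3 and 147.3 FPKM in HF knockout replicates 1 and 3. Reln and Acta2 were at their highest of the series there (10.40 and 4.15 FPKM). Hand2 was at its lowest (0.71 FPKM against at least 2.08 elsewhere), and the remaining markers of that list lay within the range of the other libraries. Hepatocyte markers went both ways: Alb was at 72054 FPKM against at most 43610 elsewhere, Cyp2e1 at 27.51 FPKM against at least 1677 and Tat at 59.62 FPKM against at least 169.4. The part of these cells in the collagen values of that library was not tested. The 7 macrophage markers summed to 115.5, 37.6 and 225.3 FPKM in HF knockout and to 76.8, 74.0 and 41.0 FPKM in HF floxed. All 7 had higher fitted values in HF knockout (median 0.66), against 53.4% of all genes. In HF knockout replicate 2, however, Clec4f, Marco and Vsig4 were at their lowest of the series (10.84, 0.06 and 3.73 FPKM). The remaining macrophage markers lay there within the range of the other libraries.

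On the LF diet (LF knockout against LF floxed), chains of types I, III and V, and Col6a1 to Col6a3, were at higher means in the knockout, and no difference passed the test. Of 24 chains 0 were called by edgeR (0.0159% of all genes) and 0 by DESeq2 (0.27% of all genes). At an unadjusted p under 0.05 edgeR had Col12a1 higher (2.58% of all genes) and Col27a1 lower (2.55%). The same chains were the ones whose groups did not overlap, Col12a1 higher (16% of all genes) and Col27a1 lower (2.18%).

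The median log2 fold change on LF was 1.06 over fibrillar, 0.50 over basement membrane and 0.25 over other chains, beside −0.02 over all genes. Col12a1 had 1.38 ± 0.59, Col1a1 1.52 ± 0.78, Col1a2 1.44 ± 0.70 and Col3a1 1.18 ± 0.68 (SE; edgeR adjusted p = 0.929 for each). Col27a1 had −1.02 ± 0.41, with the same adjusted p. For Col1a1 and Col3a1 the higher mean came from replicates 2 and 3, the libraries high in Cidea, while replicate 1 lay below all LF floxed libraries. Without replicates 2 and 3 the fibrillar median was −0.46. The stellate cell and fibroblast markers had a median of 0.16 here, 10 of 14 being higher, against 47.4% of all genes.

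The interaction asked whether the diet difference itself differed between genotypes. Of 24 chains 0 were called by edgeR (0.0159% of all genes) and 0 by DESeq2 (0.85% of all genes). At an unadjusted p under 0.05 edgeR had 0 chains above 0 (5.21% of all genes) and 3 below it (Col6a2, Col12a1 and Col14a1, against 4.34%). The medians were −1.18 over fibrillar, 0.83 over basement membrane and −0.82 over other chains, beside 0.05 over all genes. The basement membrane median was −1.21 without HF knockout replicate 2 and −0.59 on log2(FPKM + 1), and that of other chains was 0.02 without the filter.

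Col14a1 had an interaction of −1.25 ± 0.46, Col6a2 of −1.11 ± 0.47 and Col12a1 of −1.87 ± 0.80 (SE; edgeR adjusted p = 0.465, 0.498 and 0.502). Col1a1 had −2.15 ± 1.07 and Col1a2 −1.98 ± 0.96 (edgeR adjusted p = 0.551 and 0.539). A smaller HF difference of these chains in the knockout was thus fitted but not shown. It shares libraries with the comparisons above, and the fibrillar median was 0.07 without LF knockout replicates 2 and 3.

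Across all 12 libraries the chains whose log2 level was most like that of Col1a1 were Col3a1, Col1a2, Col6a3 (r = 0.97), Col5a1 (r = 0.97), Col5a2 (r = 0.96) and Col12a1 (r = 0.95). Col4a1 and Col16a1 followed at r = 0.94 and 0.93 and Col4a2 at 0.89. Col18a1, at r = 0.07, Col13a1, at −0.15, and Col5a3 and Col27a1 stood outside this group, while Col5a3 and Col13a1 were like each other (r = 0.85). Both had their lowest value of the series in HF knockout replicate 2 (0.42 and 0.15 FPKM), and r without that library was not computed. All chains in these pairs share the same libraries and groups, so the values describe these libraries.

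Col4a3bp, the symbol that matched without encoding a collagen, was at 2.82 to 6.12 FPKM. Its log2 fold change on HF was −0.31 ± 0.19 in floxed libraries and −0.41 ± 0.19 in knockout libraries (SE; edgeR adjusted p = 0.516 and 0.406).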

How the data were processed

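Expected counts (estimated reads per gene) and FPKM values were deposited by the authors, 1 table per library. The submitters' processing notes name mm9 as the build. The aligner, counter and gene models behind them are not stated in the sources used here. FPKM values were used as deposited, and genes absent from a table were taken as 0. Unnamed loci (1229, with 6.65 to 17.33% of the counts) were left out. Rounded expected counts entered edgeR 4.0.16 (R 4.3.3): TMM factors, filterByExpr, quasi-likelihood F tests over all 12 libraries with 1 mean per group, and Benjamini-Hochberg adjustment over 12587 genes at 5%. SE is the log2 fold change divided by the root of F. Untested chains had too few counts. Alternatives used DESeq2 1.42.0, limma 3.58.1 on log2(FPKM + 1) and log2(FPKM + 0.1), other filters, samples and blocks. The members, classes, lists and naming rule (library values for chains of at least 1 FPKM on average and the 3 of smallest p in each of 5 comparisons, and 2 genes of smallest p per list) were chosen with earlier results of these data known. Median changes over classes are descriptions.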

Additional observations from a re-analysis of the deposited data

How the results depend on the processing

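Of 496 recomputed counts of called chains and class medians, 463 stayed within the replicate spread or within 1.5 times of the reported count and 33 did not. That spread was wide, with a log2 SD of 0.98 for fibrillar, 1.02 for basement membrane and 0.39 for other chains. A small median could therefore change sign and still be counted as kept, and so was every count of 0 that stayed 0. The cause of each shift was not tested. For HF against LF in floxed libraries, the 0 called chains became 5 with DESeq2, 4 with the compared groups only, 7 when both libraries with another form of file name were dropped (HF floxed replicate 3, HF knockout replicate 1; 1.23% of all genes), and 2 without HF knockout replicates 1 and 2, a setting chosen after seeing the data. The setting with 7 left HF floxed with replicates 1 and 2 alone, the alike pair (chi-square per degree of freedom 8.87). With near-identical pairs averaged 0 chains were called. With any 1 library left out 0 chains were called in all 5 comparisons. The fibrillar median (2.10) was 0.57 without a filter and 0.69 on log2(FPKM + 1), and the median of other chains (0.97) was 1.37 on log2(FPKM + 0.1). For HF against LF in knockout libraries the basement membrane median (2.75) was 1.45 with the compared groups only, 0.84 on log2(FPKM + 1), 0.95 on log2(FPKM + 0.1) and −0.01 without HF knockout replicates 1 and 2, and 0.12 to 3.73 with 1 library left out. Limma's filter left only Col4a1 and Col4a2 in that class. Without LF knockout replicates 2 and 3, also chosen after seeing the data, the fibrillar and other medians were 1.81 and 0.92 there, −0.46 and −0.28 for knockout against floxed on LF, and 0.07 and −0.15 for the interaction. For knockout against floxed on HF the basement membrane median (1.33) was −0.11 on log2(FPKM + 1), −0.20 on log2(FPKM + 0.1), −1.28 without HF knockout replicates 1 and 2, and −1.01 to 2.48 with 1 library left out. In the interaction it (0.83) was −0.59, −0.85 and −1.45 in the same order, and −1.21 to 2.15 with 1 library left out. The interaction median of other chains (−0.82) was 0.02 without a filter, −1.23 on log2(FPKM + 0.1) and −1.21 to −0.66 with 1 library left out. Col18a1 on HF in floxed libraries (−0.24) was 0.00 on either limma scale. Col15a1 there (0.02) was −0.20 with near-identical pairs averaged and −0.22 to 0.36 with 1 library left out. On HF in knockout libraries Col4a3 (5.07) was −0.15 without HF knockout replicates 1 and 2 and −0.37 to 5.64 with 1 library left out, and Col4a5 (3.89) was −0.11 to 4.57. For knockout against floxed on HF Col4a3 (4.23) was −0.96 without HF knockout replicates 1 and 2 and −1.21 to 4.83 with 1 library left out.

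Replicate numbers did not pair the samples: over 18 pairs of same-numbered libraries the correlation of deviations ran from −0.331 to 0.404, and 3 pairs exceeded 0.1. With a replicate block 0 chains were called in each of the 5 comparisons, and Col15a1 on HF in floxed libraries was −0.04.

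The 16 untested chains, at most 0.62 FPKM in any library, allow no statement on diet or genotype at this depth.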
